A study of Mus musculus with 54 samples.

Results

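Combined loss of SGLT1 and inhibition of SGLT2 was examined in early proximal tubules of mice without diabetes. Tubules of Sglt1 knockout mice that received dapagliflozin (KO dapagliflozin) were compared with tubules of wild-type mice that received vehicle (WT vehicle). The comparison used 11 samples, 6 of KO dapagliflozin and 5 of WT vehicle, out of 48 samples with a column in the deposited table and 54 labelled samples. The samples were chosen by their group labels alone, and no measured value entered the choice. All mice were DBA males aged 14 weeks, and those of KO dapagliflozin and WT vehicle had both copies of Ins2 intact (Ins2+/+). KO dapagliflozin mice were Sglt1-/- and received dapagliflozin at 10 mg/kg diet for 2 weeks, and WT vehicle mice were Sglt1+/+ and received vehicle for 2 weeks. To place the combined block beside its components, 5 samples of Sglt1-/- mice with vehicle (KO vehicle) and 4 samples of Sglt1+/+ mice with dapagliflozin (WT dapagliflozin) were used, also Ins2+/+. The same contrast was read in Akita mice, which carry 1 Akita allele of Ins2 and develop diabetes from a lack of insulin, in 6 samples of Sglt1-/- mice with dapagliflozin and 6 of Sglt1+/+ mice with vehicle. The remaining samples with a column were also of Akita mice. They were 6 of Sglt1-/- mice with vehicle, 5 of Sglt1+/+ mice with dapagliflozin and 5 of Sglt1+/+ mice with semaglutide at 3 nmol/kg per day. These samples entered no contrast, but the gene filter and the spread behind every limma p-value and interval came from all 48 samples. In every group treatment lasted 2 weeks, with dapagliflozin at 10 mg/kg diet where given. The labels do not say how the Sglt1 allele was made or in which cells it is lost. RNA of 70 to 80 tubules that stained for SGLT2 was pooled per sample after laser capture, so the staining that chose the tubules depends on the product of Slc5a2, the drug's target. Which samples came from the same animal is not labelled, so the p-values rest on the variation among samples, part of which may be technical.

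SGLT2 and SGLT1 are sodium-glucose cotransporters of the apical membrane of the proximal tubule. SGLT2 reclaims most of the filtered glucose in the early segment, and SGLT1 reclaims most of what is left further along the tubule, and more of it when SGLT2 is inhibited. Glucose then leaves the cell to the blood through GLUT2, encoded by Slc2a2. In the absence of diabetes the filtered glucose load is normal, and blocking both transporters leaves the tubule with almost no route for reclaiming it. The early proximal tubule also makes glucose, burns fatty acids, reclaims bicarbonate, phosphate and amino acids and produces ammonia, so genes of these tasks were followed as groups.

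The libraries of both groups were alike in the measures that could be read from TPM, the length-corrected share of each transcript in its library on a common total. A mean of 10231 ± 214 genes (SD, n = 6) reached 1 TPM in KO dapagliflozin samples, against 10166 ± 577 (n = 5) in WT vehicle samples. Nuclear protein-coding genes took 10.4% ± 1.33 of the TPM in KO dapagliflozin and 10.0% ± 1.54 in WT vehicle. Mitochondrial transcripts took 23.4% ± 5.68 in KO dapagliflozin and 24.3% ± 5.63 in WT vehicle, and the most abundant ribosomal RNA transcript 49.0% ± 8.77 in KO dapagliflozin and 47.2% ± 5.89 in WT vehicle. The exact two-sided permutation test gave p between 0.623 and 0.818 for these 4 measures, and an adjusted p of 0.818 for each. Pearson correlations between libraries over the tested genes ran from 0.862 to 0.923 within KO dapagliflozin, from 0.885 to 0.918 within WT vehicle and from 0.860 to 0.933 between the groups. TPM keeps no depth, so counting error is unknown.

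The captured RNA carried the markers of early proximal tubule in every library. All 12 S1 markers were above 0 in all 11 samples, and Slc34a1, the main phosphate transporter of this segment, lay between 456 and 927 TPM in KO dapagliflozin and between 490 and 976 TPM in WT vehicle. Markers on the late-segment list were also abundant. The 10 of them summed to 772 to 1377 TPM in KO dapagliflozin and 772 to 1222 TPM in WT vehicle. The 12 S1 markers summed to 1020 to 2115 TPM in KO dapagliflozin and 1116 to 2237 TPM in WT vehicle. Slc27a2 led the late list, at 417 to 785 TPM in KO dapagliflozin and 447 to 807 TPM in WT vehicle. Slc7a13 lay at 32.4 to 55.3 TPM in KO dapagliflozin and 27.1 to 46.4 TPM in WT vehicle. Markers of podocytes and immune cells were low, and those of distal segments were higher and varied between libraries. The 6 tested podocyte markers summed to 3.99 to 12.8 TPM in KO dapagliflozin and 4.97 to 8.68 TPM in WT vehicle. The 6 tested immune markers summed to 3.35 to 8.29 TPM in KO dapagliflozin and 5.83 to 8.91 TPM in WT vehicle, with the T cell gene Cd3e listed at 0 in 8 libraries and the B cell gene Cd79a in 9. The 6 tested thick ascending limb markers summed to 69.3 to 122 TPM in KO dapagliflozin and 46.9 to 156 TPM in WT vehicle, led by Egf and Umod. The 9 tested distal tubule and collecting duct markers summed to 38.1 to 254 TPM in KO dapagliflozin and 16.5 to 133 TPM in WT vehicle. The top of both ranges came from Slc12a3, the sodium-chloride cotransporter of the distal convoluted tubule, which reached 229 TPM in 1 KO dapagliflozin library and 105 TPM in 1 WT vehicle library. The 10 stromal and smooth muscle markers summed to 6.88 to 17.7 TPM in KO dapagliflozin and 7.78 to 26.3 TPM in WT vehicle, and the 11 endothelial markers to 49.2 to 75.8 TPM in KO dapagliflozin and 38.7 to 97.4 TPM in WT vehicle. None of the tested markers of any of these cell types was called different. Of all genes tested only 0.0235% were, so this lack of calls says little about the mix of cells. In pooled tubules, fewer cells of a type and less RNA per cell cannot be told apart.

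Combined block of both transporters left most of the measured transcriptome of these tubules without a detectable difference. Of 12742 genes tested, 3 were called different by limma at an adjusted p under 0.05, which is 0.0235% of them. Abhd1 was the only gene called higher (0.00785%), and Slc5a1 and the predicted transcript Gm43694 were called lower (0.0157%). Abhd1 and Gm43694 lie on chromosome 5 within 5 Mb of Slc5a1, the gene that was knocked out. At an unadjusted p under 0.05 limma marked 302 genes (2.37%), 177 of them higher (1.39%) and 125 lower (0.981%) in KO dapagliflozin. Without any change a fraction of about 0.05 would fall under this threshold, so these counts do not by themselves show further change. The median log2 change of all genes was 0.04, with 7407 genes above 0 and 5314 below 0. Every log2 change here is KO dapagliflozin minus WT vehicle on log2(TPM + 1), a scale that understates changes of low genes.

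How small a change on this scale the samples could exclude varied between genes. The median SE of a log2 change was 0.25, and the 95% confidence interval reached 0.51 to either side of the estimate in the median gene. For 11148 of the 12742 genes (87.5%) the whole interval lay within a log2 change of 1 in either direction. A change of that size on this scale was therefore not excluded for the remaining genes. For genes near 1 TPM, an interval within this bound can still hold a large change in TPM, because 1 is added before the logarithm. Slc5a1 averaged 2.44 TPM in WT vehicle and 0.0205 TPM in KO dapagliflozin, yet its fitted log2 change was only −1.67. The fitted log2 change was 1 or more in either direction for 143 genes, of which 3 were called.

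**Figure D1:**
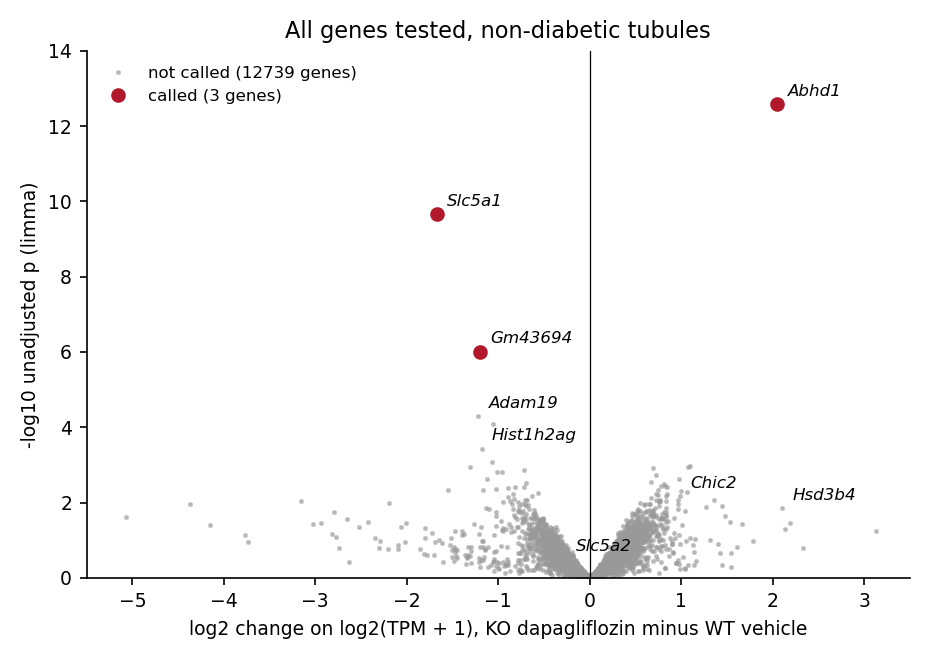
Each point is a gene, with its log2 change (KO dapagliflozin minus WT vehicle, on log2(TPM + 1)) on the horizontal axis and −log10 of its unadjusted limma p on the vertical axis. Abhd1, Slc5a1 and Gm43694, in red, are the 3 called genes and stand above all other genes, while Slc5a2 sits at the base of the plot.

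The knockout was visible in its target. Slc5a1 (chromosome 5, 33104219 to 33162870, plus strand, GRCm38) was listed at 0 TPM in KO dapagliflozin samples 1, 2, 4, 5 and 6 and at 0.123 TPM in sample 3. In WT vehicle it had 2.92, 4.29, 2.27, 1.69 and 0.996 TPM in samples 1, 3, 4, 5 and 6. Every knockout library was thus below every wild-type library, and the labelled genotypes held. The log2 change was −1.67 ± 0.21 (SE), with a 95% interval from −2.10 to −1.25 (adjusted p = 1.41e-06, limma). Slc5a1 is a low transcript in this early segment even in wild type, and it fell in 6 of 6 KO dapagliflozin samples.

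Abhd1 had the largest called change. It is named after a protein of the alpha/beta hydrolase fold family, but in mouse GENCODE lists it as a processed transcript with no coding sequence, and RefSeq as a transcribed pseudogene (ENSMUSG00000006638, chromosome 5, 30950066 to 30955091, plus strand, GRCm38). KO dapagliflozin samples 1 to 6 had 4.98, 8.14, 6.67, 11.2, 6.37 and 7.63 TPM. WT vehicle samples 1, 3, 4, 5 and 6 had 0.672, 1.73, 0.790, 1.09 and 0.869 TPM. The lowest knockout sample was above the highest wild-type sample, and all 6 knockout samples were higher than the wild-type median. The means were 7.50 ± 2.12 TPM (SD, n = 6) in KO dapagliflozin and 1.03 ± 0.421 TPM (n = 5) in WT vehicle, and the log2 change was 2.05 ± 0.21 (SE, interval 1.64 to 2.47, adjusted p = 3.38e-09, limma). Abhd1 overlaps Preb, a gene on the opposite strand whose product activates the GTPase of COPII vesicles, over 4239 bases. The labels name a stranded library kit, but whether strand was used in quantification is not given in the sources used here, so reads of both genes could have been exchanged. Preb itself had 29.8 ± 7.42 TPM in KO dapagliflozin and 25.2 ± 6.94 TPM in WT vehicle, a log2 change of 0.24 with an interval from −0.17 to 0.65 (adjusted p = 1, limma).

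Gm43694 was the third called gene. It is a predicted transcript of no known function (ENSMUSG00000107018, chromosome 5, 32629842 to 32630960, plus strand, GRCm38) inside Yes1, a gene of a SRC-family kinase, on the same strand. It was listed at 0 TPM in KO dapagliflozin samples 1, 4, 5 and 6 and had 0.358 and 0.297 TPM in samples 2 and 3. WT vehicle samples 1, 3, 4, 5 and 6 had 1.30, 2.94, 1.09, 0.901 and 1.88 TPM. The groups did not overlap, but every value was low. The log2 change was −1.20 ± 0.22 (SE, interval −1.64 to −0.77, adjusted p = 0.00417, limma). The call did not hold when WT vehicle sample 3, its highest sample, was left out (−1.04, adjusted p = 0.0939) or when only the 11 samples compared entered the limma fit (adjusted p = 0.187). Yes1, with which reads may be shared, had a log2 change of 0.08 with an interval from −0.35 to 0.52.

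**Figure D2:**
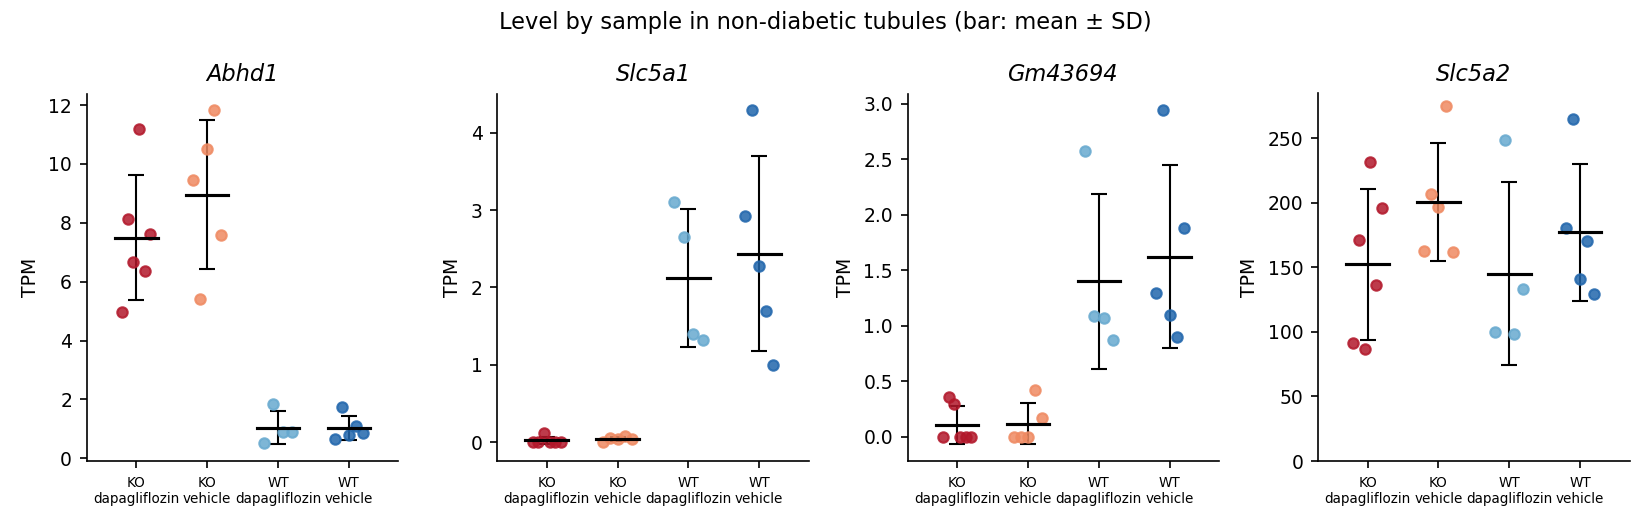
Level in TPM of Abhd1, Slc5a1, Gm43694 and Slc5a2 in each non-diabetic sample (points), with the mean (thick bar) and SD (whiskers) of KO dapagliflozin (n = 6), KO vehicle (n = 5), WT dapagliflozin (n = 4) and WT vehicle (n = 5). The first 3 genes separate by genotype, with KO vehicle near KO dapagliflozin and WT dapagliflozin near WT vehicle, whereas Slc5a2 overlaps between all 4 groups.

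The called genes stood out from their chromosomal neighbours. Of the 94 tested genes that start within 5 Mb of Slc5a1, itself included, 3 were called (3.19%, against 0.0235% of all genes). Slc5a1 is among the 3, and its fall is set by the genotype that defines the groups. The called neighbours were thus Abhd1 and Gm43694. On chromosome 5, where 824 genes were tested, 0 genes were called elsewhere, and 0 on any other chromosome. The other 91 neighbours had log2 changes from −0.57 to 0.51 with a median of 0.01. Of these, 48 were above 0 and 43 below 0, and 0 reached an unadjusted p under 0.05 by limma. Among them were Preb and Yes1, the partners of Abhd1 and Gm43694, and Krtcap3, which had the highest value of the 91.

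**Figure D3:**
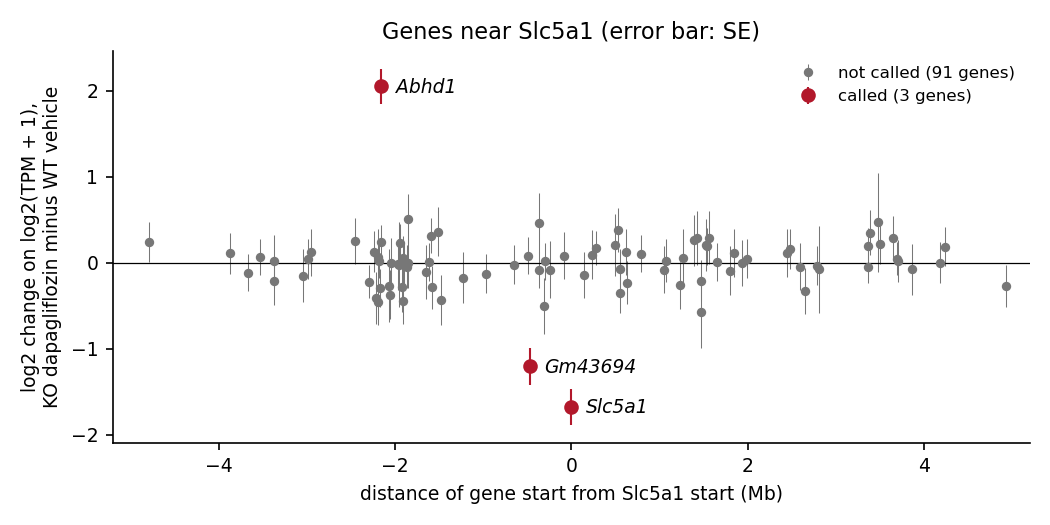
Log2 change (KO dapagliflozin minus WT vehicle, with SE) of the 94 tested genes within 5 Mb of Slc5a1, by distance of the gene's start from that of Slc5a1. Abhd1 at 2.05, Gm43694 at −1.20 and Slc5a1 at −1.67 lie apart from the other 91 genes, which stay between −0.57 and 0.51.

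The other glucose transporters were not called. Slc5a2, which encodes SGLT2, had 91.3, 171, 86.8, 232, 136 and 196 TPM in KO dapagliflozin samples 1 to 6, and 180, 264, 141, 171 and 129 TPM in WT vehicle samples 1, 3, 4, 5 and 6. The groups overlapped, with 3 of 6 knockout samples above the wild-type median. Its log2 change was −0.26 ± 0.26 (SE), with an interval from −0.79 to 0.26 (adjusted p = 1, limma). Slc2a2, the gene of the basolateral exit transporter GLUT2, averaged 15.7 ± 4.80 TPM (SD, n = 6) in KO dapagliflozin and 16.5 ± 4.12 TPM (n = 5) in WT vehicle, with a log2 change of −0.10 and an interval from −0.60 to 0.40. That sign turned when KO dapagliflozin sample 1 or WT vehicle sample 3 was left out. Pdzk1ip1, which encodes the SGLT2 partner MAP17, averaged 49.4 TPM in KO dapagliflozin and 49.99 TPM in WT vehicle, and its log2 change was −0.01. Slc2a1, the gene of the other basolateral glucose transporter GLUT1, averaged 1.78 TPM in KO dapagliflozin and 1.54 TPM in WT vehicle, with a log2 change of 0.13 and an interval from −0.28 to 0.54. Slc5a10, a mannose and fructose cotransporter gene of the late segment, averaged 42.01 TPM in KO dapagliflozin and 40.3 TPM in WT vehicle, and the fructose transporter gene Slc2a5 16.1 TPM in KO dapagliflozin and 16.9 TPM in WT vehicle. Of 13 tested genes of glucose transport, Slc5a1 alone was called, 12 had intervals within a log2 change of 1, and the median was −0.10.

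The 3 called genes had changes of like size at the genotype steps and values near 0 at the drug steps. Comparisons that share samples are given here side by side, without a measure of their agreement. Abhd1 had a log2 change of 2.05 for the combined block, 2.06 for KO dapagliflozin against WT dapagliflozin (adjusted p = 2.28e-08, limma) and 2.28 for KO vehicle against WT vehicle (adjusted p = 4.5e-10). For KO dapagliflozin against KO vehicle it was −0.22, with an interval from −0.64 to 0.19, and for WT dapagliflozin against WT vehicle −0.01. KO vehicle samples had a median of 9.46 TPM and WT dapagliflozin samples one of 0.886 TPM. Slc5a1 had −1.57 for KO dapagliflozin against WT dapagliflozin (adjusted p = 4.37e-05), −1.64 for KO vehicle against WT vehicle (adjusted p = 7.6e-06) and −0.03 for KO dapagliflozin against KO vehicle. Gm43694 had −1.08 for KO dapagliflozin against WT dapagliflozin and did not pass there (adjusted p = 0.091), had −1.19 for KO vehicle against WT vehicle (adjusted p = 0.0115), and had −0.01 for KO dapagliflozin against KO vehicle. KO dapagliflozin against WT dapagliflozin called 2 genes (0.0157%), Abhd1 and Slc5a1, with 877 at an unadjusted p under 0.05 (6.88%). KO vehicle against WT vehicle called the same 3 genes as the combined block (0.0235%), with 587 at an unadjusted p under 0.05 (4.61%).

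Adding dapagliflozin to the knockout gave 1 called gene, Sox5, which encodes a SOX-family transcription factor (1 of 12742 for KO dapagliflozin against KO vehicle, 0.00785%). At an unadjusted p under 0.05 the same comparison marked 494 genes (3.88%). KO dapagliflozin samples lay between 0.158 and 0.545 TPM, with a median of 0.473, and KO vehicle samples between 1.30 and 3.90 TPM, with a median of 2.39. Between these groups the log2 change was −1.39 ± 0.26 (SE, adjusted p = 0.0259, limma). Against WT vehicle, where the samples spread from 0.0684 to 2.17 TPM, the log2 change of KO dapagliflozin was −0.45 with an interval from −0.96 to 0.07. The call was lost with median-of-ratios scaling, quantile normalization, rescaling to nuclear protein-coding genes, a pseudocount of 0.1, no filter or a fit of only the groups compared, and the gene fell out under a mean of at least 2 TPM. It was also lost without any 1 of 9 of the 11 libraries compared, and held without KO dapagliflozin sample 3 or KO vehicle sample 5. Without KO vehicle sample 6 the gene called was Ncapg2 in its place. Dapagliflozin alone, WT dapagliflozin against WT vehicle, gave 0 called genes by limma, with 516 (4.05%) under 0.05 before adjustment.

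A departure of the combined block from the sum of its components was tested as an interaction. No gene passed (0 of 12742, limma), and 496 had an unadjusted p under 0.05 (3.89%). For Abhd1 the interaction was −0.21 with an interval from −0.83 to 0.41, and for Slc5a1 0.08 with an interval from −0.56 to 0.71. The smallest p belonged to Ncapg2, a condensin subunit gene, at −2.15 ± 0.43 (SE, adjusted p = 0.0962). Its levels were 0 to 0.299 TPM in KO dapagliflozin, 0.220 to 8.58 TPM in KO vehicle, 0.608 to 2.17 TPM in WT dapagliflozin and 0.127 to 0.465 TPM in WT vehicle. Both single-block groups thus reached higher values than the combined block or the untreated wild type, and KO vehicle spread widely. Sox5 followed with −1.80 (adjusted p = 0.151), Anapc4, a subunit gene of the anaphase-promoting complex, with −1.34 (adjusted p = 0.926), Acsl5, an acyl-CoA synthetase gene, with 1.803 and Cln3, a lysosomal membrane protein gene, with −1.26 (adjusted p = 0.998 for both). Ncapg2 and Anapc4 were called by limma with median-of-ratios scaling, quantile normalization, rescaling to nuclear protein-coding genes or the number of genes detected as a covariate (Ncapg2 adjusted p = 0.0219 to 0.0413, Anapc4 0.0177 to 0.0294). Ncapg2 and Sox5 were also called without WT dapagliflozin sample 5 (adjusted p = 0.0225 and 0.0136) or KO vehicle sample 5 (0.0436 for both), and Ncapg2 without KO vehicle sample 6 (0.00406).

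Below the threshold, the leading genes among those averaging 2 TPM or more in either group are described by their values. Adam19, a membrane metalloprotease gene, came closest, with 0.295, 0.180, 0.267, 0.479, 0.953 and 0.394 TPM in KO dapagliflozin samples 1 to 6 and 2.92, 4.54, 2.82, 1.93 and 0.547 TPM in WT vehicle samples 1, 3, 4, 5 and 6. All 6 knockout samples were below the wild-type median, and WT vehicle sample 6 lay among the knockout samples. The log2 change was −1.22 ± 0.27 (SE, adjusted p = 0.162, limma), and without WT vehicle sample 6 it was −1.49 and called (adjusted p = 0.00722). Hist1h2ag, a replication-dependent histone gene of a multigene family whose reads can be split between copies, was listed at 0 in all 6 KO dapagliflozin samples. In WT vehicle it had 4.76, 0.916 and 4.44 TPM in samples 3, 4 and 5 and was listed at 0 in samples 1 and 6 (adjusted p = 0.794, limma). Hist1h2ag was also listed at 0 in all 5 KO vehicle and all 4 WT dapagliflozin samples, so its absence was not particular to the combined block. Cbfa2t3, a transcriptional corepressor gene, had 0.288 to 0.876 TPM in KO dapagliflozin and 1.18 to 3.96 TPM in WT vehicle, without overlap, and a log2 change of −1.06 ± 0.30 (adjusted p = 1). Adck4, a coenzyme Q kinase gene also known as Coq8b, had 2.17 to 3.05 TPM in KO dapagliflozin and 3.42 to 4.94 TPM in WT vehicle, also without overlap, and a log2 change of −0.57 ± 0.20. Scd1, Mrpl14, Gfod2, Mbip and Vsig10 completed the lower side, with log2 changes from −1.13 to −0.72 and an adjusted p of 1 each.

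On the higher side, Chic2, a palmitoylated membrane protein gene, was the gene whose groups did not overlap. It had 5.08, 5.65, 4.46, 7.33, 4.18 and 3.65 TPM in KO dapagliflozin samples 1 to 6 and 2.73, 2.06, 1.59, 2.47 and 1.40 TPM in WT vehicle samples 1, 3, 4, 5 and 6. Every knockout sample was above every wild-type sample, and the log2 change was 0.98 ± 0.35 (SE, adjusted p = 1, limma). Over all genes tested, groups without overlap were found for 30 (0.235%), 18 with KO dapagliflozin higher (0.141%) and 12 with it lower (0.0942%). Mfsd8, a lysosomal membrane protein gene, also had a log2 change of 0.98, but its KO dapagliflozin samples ran from 0.729 to 8.19 TPM and WT vehicle from 0.575 to 0.849 TPM. Other genes on this side were Ube2n and Ube2j1, which encode ubiquitin-conjugating enzymes, the homeobox gene Hoxb7, the kinase gene Tesk1, the phosphatase subunit gene Smek2, the ER export receptor gene Cnih1 and the glyoxalase-domain gene Glod4. Their log2 changes were between 0.67 and 0.84, all with an adjusted p of 1. In Hoxb7 and Tesk1 5 of 6 knockout samples lay above the wild-type median, and in the others of these all 6 did.

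The gene groups of the tubule's main tasks showed the same lack of calls. Across 41 lists with 653 genes, 589 genes were tested and 1 was called, the knocked-out Slc5a1. Over all genes 3 of 12742 were called (0.0235%). At that share a short list would mostly hold 0 called genes, so 0 calls in a list says little about its pathway. At an unadjusted p under 0.05 limma marked 9 list genes (1.53%, against 2.37% of all genes). Medians of the lists ran from −0.49 to 0.17, and those of 31 lists lay within 0.1 of the median of all genes, 0.04. The interval lay within a log2 change of 1 for 526 of the 589 genes (89.3%, against 87.5% of all genes).

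**Figure D4:**
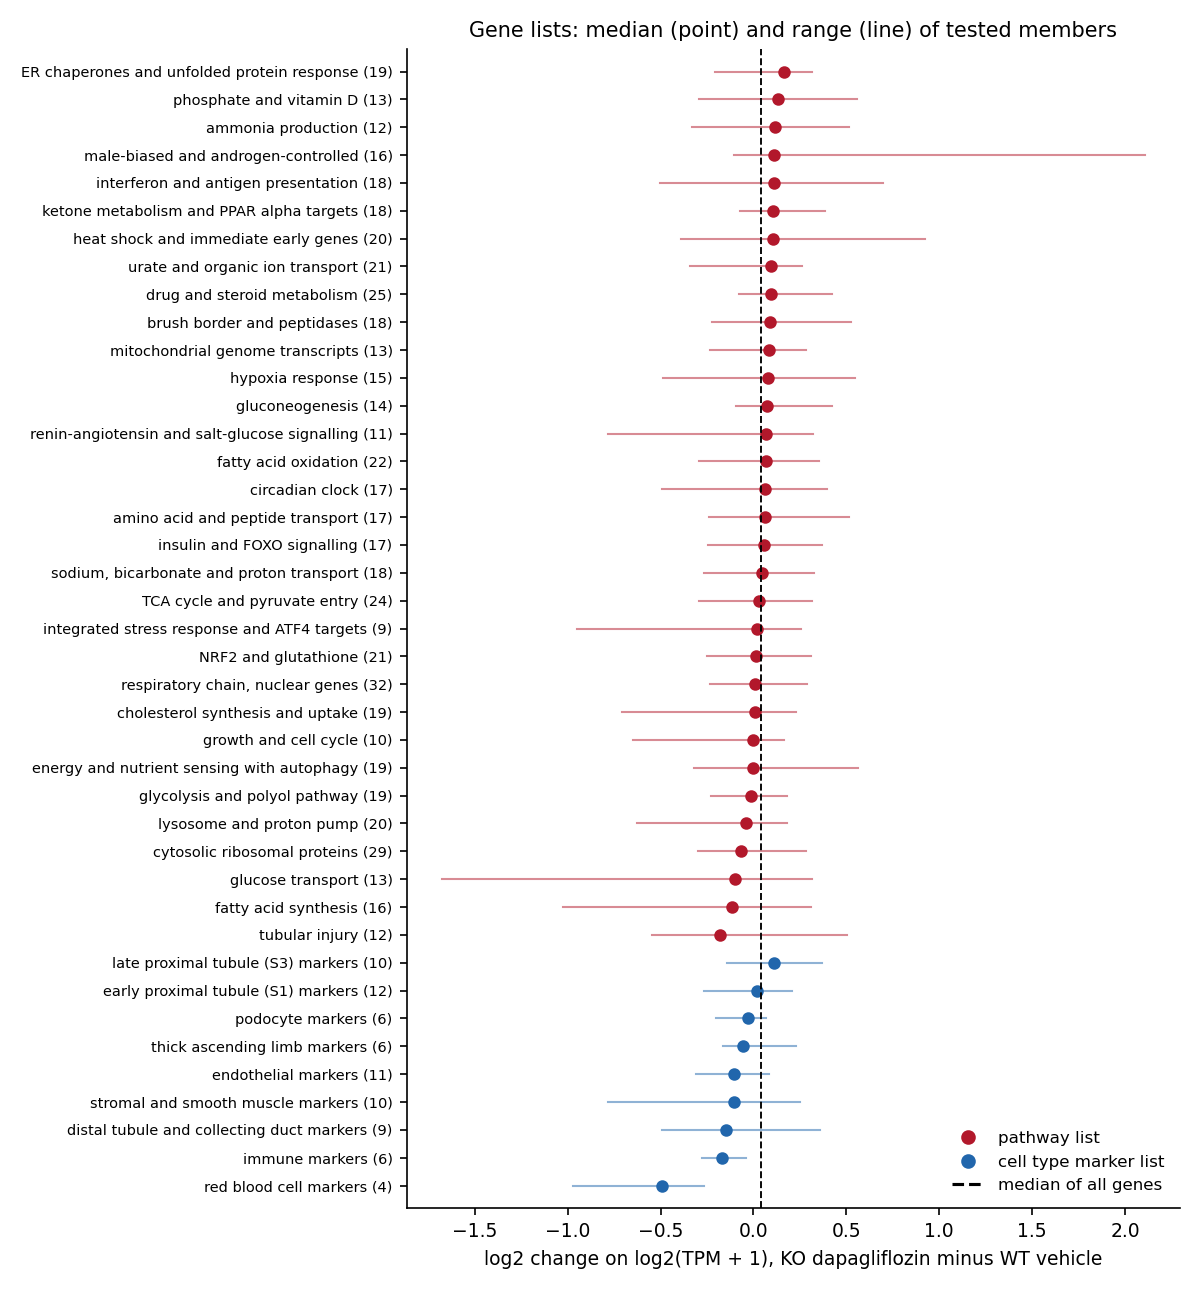
Median (point) and range (line) of the log2 change (KO dapagliflozin minus WT vehicle) over the tested members of 32 pathway lists (red) and 9 cell type marker lists (blue), with the number tested in brackets and the median of all genes, 0.04, as a dashed line. Most medians lie close to the dashed line, and the red blood cell list, with 4 genes, lies lowest at −0.49.

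Glucose production and breakdown were close to even between the groups. Of 14 tested gluconeogenesis genes, 0 were called, 10 were above 0 and all 14 had intervals within a log2 change of 1, with a median of 0.07. Pck1, the rate-limiting enzyme of gluconeogenesis, averaged 472 TPM in KO dapagliflozin and 366 TPM in WT vehicle (log2 change 0.26, interval −0.39 to 0.92). G6pc, which releases free glucose, averaged 34.7 TPM in KO dapagliflozin and 34.4 TPM in WT vehicle, and Fbp1, which encodes a fructose bisphosphatase, 81.9 TPM in KO dapagliflozin and 88.02 TPM in WT vehicle. Pck2, the mitochondrial form, had the smallest p of the list, with 1.17 TPM in KO dapagliflozin, 0.6245 TPM in WT vehicle and a log2 change of 0.42 (unadjusted p = 0.0556, limma). Of 19 tested genes of glycolysis and the polyol pathway, 0 were called, 9 were above 0, the median was −0.01 and every interval was within a log2 change of 1. Txnip, a gene induced by glucose in many cells, averaged 9.98 TPM in KO dapagliflozin and 9.003 TPM in WT vehicle, with a log2 change of 0.25 and an interval from −0.43 to 0.94.

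Lipid synthesis held several of the lower values. In the list of fatty acid synthesis 11 of 16 tested genes were below 0, with a median of −0.11, 0 called and 2 at an unadjusted p under 0.05. Scd1, the stearoyl-CoA desaturase that makes monounsaturated fatty acids, had 0.334, 0.351, 0.976, 0.193, 0.409 and 0.715 TPM in KO dapagliflozin samples 1 to 6, against 2.13, 0.277, 2.14, 2.87 and 4.003 TPM in WT vehicle samples 1, 3, 4, 5 and 6. All 6 knockout samples were under the wild-type median, but WT vehicle sample 3 was among the lowest of all. The log2 change was −1.03 ± 0.34 (SE, adjusted p = 1, limma), and it was −0.89 for KO dapagliflozin against KO vehicle and −1.06 for WT dapagliflozin against WT vehicle, neither called. KO vehicle samples spread from 0.179 to 10.6 TPM with a median of 0.822 TPM. WT dapagliflozin samples lay between 0.111 and 1.08 TPM, with a median of 0.386 TPM. Fasn, fatty acid synthase, averaged 3.13 TPM in KO dapagliflozin and 4.81 TPM in WT vehicle (log2 change −0.47, interval −0.93 to −0.02). Scd2 averaged 0.798 TPM in KO dapagliflozin and 1.63 TPM in WT vehicle (unadjusted p = 0.0669). Against these, Acly and Dgat2 had log2 changes of −0.02 and −0.08, and Me1 one of 0.31. Of 19 cholesterol genes 10 were above 0, and Fdft1, squalene synthase, had the smallest p with 0.681 TPM in KO dapagliflozin and 1.804 TPM in WT vehicle (log2 change −0.71, adjusted p = 1).

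Fatty acid oxidation and ketone genes were near the median of all genes. Of 22 tested oxidation genes 16 were above 0 and 0 were called, with a median of 0.07 and every interval within a log2 change of 1. Cpt1a, which controls entry of fatty acids into mitochondria, averaged 31.0 TPM in KO dapagliflozin and 29.9 TPM in WT vehicle. Of 18 tested genes of ketone metabolism and targets of PPAR alpha, 13 were above 0 and the median was 0.11. Nuclear genes of the respiratory chain had a median of 0.01 over 32 genes and those of the TCA cycle one of 0.03 over 24 genes, again with every interval within a log2 change of 1.

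Genes for transport of salt, acid, phosphate and organic solutes were not called, as was the case for nearly all genes tested. Of 18 tested genes of sodium, bicarbonate and proton transport, 11 were above 0, with a median of 0.05. Slc9a3, which encodes the apical sodium-proton exchanger NHE3, averaged 25.6 TPM in KO dapagliflozin and 24.05 TPM in WT vehicle, with a log2 change of 0.05 and an interval from −0.41 to 0.52. Slc4a4, the basolateral bicarbonate exit route, averaged 208 TPM in KO dapagliflozin and 198 TPM in WT vehicle. Slc34a1 averaged 626 TPM in KO dapagliflozin and 651 TPM in WT vehicle, with a log2 change of −0.06. Slc22a12, which encodes the urate exchanger URAT1, averaged 119 TPM in KO dapagliflozin and 118 TPM in WT vehicle, and the median of the 21 tested genes of urate and organic ion transport was 0.09. Of 12 tested genes of ammonia production 9 were above 0. Slc38a3, the glutamine importer SNAT3, averaged 4.49 TPM in KO dapagliflozin and 2.93 TPM in WT vehicle (0.51, interval −0.17 to 1.20). Lrp2 and Cubn, the endocytic receptors megalin and cubilin, had log2 changes of 0.17 and 0.10.

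ER stress and heat shock genes mostly had values above 0, as did 7407 of all 12742 genes, and injury genes were more often below 0. Other stress lists were closer to even, with 5 of 9 integrated stress response genes, 8 of 15 hypoxia genes and 11 of 21 NRF2 and glutathione genes above 0. Of 19 tested genes of ER chaperones and the unfolded protein response, 17 were above 0, with a median of 0.17, which was 0.11 with median-of-ratios scaling and 0.13 with quantile normalization. None was called, all 19 intervals lay within a log2 change of 1, and the highest was Manf, a secreted ER stress factor gene, with 13.7 TPM in KO dapagliflozin and 10.1 TPM in WT vehicle (log2 change 0.31). Hspa5, the main ER chaperone BiP, averaged 47.8 TPM in KO dapagliflozin and 45.7 TPM in WT vehicle. Of 20 tested heat shock and immediate early genes 16 were above 0, with a median of 0.11. The inducible HSP70 genes Hspa1a and Hspa1b, near-identical copies between which reads can be split, averaged 2.19 and 3.92 TPM in KO dapagliflozin, against 0.906 and 1.58 TPM in WT vehicle. Their log2 changes were 0.71 (unadjusted p = 0.0512, limma) and 0.93 (unadjusted p = 0.0651). The groups did not overlap for Hspa1b, as for 0.235% of all genes tested. KO vehicle samples averaged more, 3.07 TPM of Hspa1a and 6.04 TPM of Hspa1b, and WT dapagliflozin samples 1.47 and 2.74 TPM. Of 12 tested tubular injury genes 8 were below 0, with a median of −0.18, led by the adhesion molecule gene Vcam1 with 0.564 TPM in KO dapagliflozin and 1.37 TPM in WT vehicle (log2 change −0.54, unadjusted p = 0.0519). Of the injury genes, 5 of 12 had intervals within a log2 change of 1. Immune markers, of which all 6 tested were below 0, had a median of −0.17 beside it, and endothelial markers one of −0.11, and their part in the injury values was not tested.

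Among lysosomal genes 13 of 20 were below 0, with a median of −0.04 and 2 at an unadjusted p under 0.05. Gaa, acid alpha-glucosidase, which degrades glycogen in lysosomes, had 4.71, 11.6, 5.67, 9.56, 7.39 and 11.3 TPM in KO dapagliflozin samples 1 to 6 and 13.5, 17.3, 14.9, 11.9 and 8.34 TPM in WT vehicle samples 1, 3, 4, 5 and 6. All 6 knockout samples were below the wild-type median, and the ranges overlapped through WT vehicle sample 6. The log2 change was −0.62 ± 0.26 (SE, adjusted p = 1, limma). Hexa, a subunit of hexosaminidase, averaged 1.36 TPM in KO dapagliflozin and 2.28 TPM in WT vehicle (log2 change −0.49). Lamp1, Lamp2 and Ctsl, which are abundant lysosomal proteins, had log2 changes of −0.04, 0.02 and −0.02.

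Androgen-controlled genes, which mark the male mouse kidney, were also not called. Of 16 tested genes 14 were above 0, with a median of 0.11, which was 0.05 with median-of-ratios scaling. Kap, a kidney protein gene induced by androgen, averaged 1994 TPM in KO dapagliflozin and 1852 TPM in WT vehicle, with a log2 change of 0.11 and an interval from −0.39 to 0.62. Hsd3b4, a steroid dehydrogenase gene of a family of close copies, had 18.2, 6.81, 17.98, 7.11, 0 and 10.0 TPM in KO dapagliflozin samples 1 to 6. In WT vehicle it had 2.29 and 5.60 TPM in samples 3 and 4 and was listed at 0 in samples 1, 5 and 6. The fitted log2 change was 2.11 ± 0.82 (SE, interval 0.45 to 3.76, adjusted p = 1, limma), the widest of this list. Ugt2b37, a glucuronosyltransferase gene, averaged 20.9 TPM in KO dapagliflozin and 12.0 TPM in WT vehicle (log2 change 0.72, unadjusted p = 0.0762).

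The same contrast in Akita tubules, which shares no sample with the non-diabetic one, called 8 genes (0.0628%), with 1358 at an unadjusted p under 0.05 (10.7%). The count without 1 Akita sample ran from 3 to 26, and it was 44 with median-of-ratios scaling or rescaling to nuclear protein-coding genes and 53 with quantile normalization. Abhd1, Slc5a1 and Gm43694 were among them, with log2 changes of 2.04, −1.35 and −1.11 (adjusted p = 8.61e-10, 0.000116 and 0.00634, limma). Abhd1 lay between 5.29 and 10.3 TPM in Akita KO dapagliflozin and between 0.983 and 1.43 TPM in Akita WT vehicle. The other 5 were Cd36, the fatty acid translocase, Guca2b, which encodes uroguanylin, Cyp2e1, an ethanol-oxidizing cytochrome P450, Slc17a1, an organic anion and phosphate transporter, and Palm3, a paralemmin. With only the 12 Akita samples compared in the limma fit, Cd36, Guca2b, Cyp2e1, Slc17a1 and Gm43694 lost their calls, while Abhd1, Slc5a1 and Palm3 were called. In the non-diabetic contrast none of the 5 was called.

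The difference between the contrasts was tested as an interaction with diabetes. No gene passed (0 of 12742, limma), and 401 (3.15%) were under 0.05 before adjustment. Cd36 had 64.9 ± 19.1 TPM in non-diabetic KO dapagliflozin and 50.7 ± 12.0 TPM in non-diabetic WT vehicle, a log2 change of 0.32, against 63.5 ± 25.9 TPM in Akita KO dapagliflozin and 23.4 ± 10.9 TPM in Akita WT vehicle, a log2 change of 1.41. The non-diabetic minus Akita difference was −1.09 with an interval from −1.92 to −0.26 (unadjusted p = 0.0112, adjusted p = 1). Guca2b had a log2 change of 0.18 without diabetes and 1.28 in Akita, and WT vehicle averaged 29.1 ± 6.25 TPM without diabetes and 18.9 ± 6.09 TPM in Akita. Cyp2e1 had 0.21 and 1.20, Slc17a1 0.12 and 1.08, and Palm3 −0.24 and −1.40, without diabetes and in Akita. These 5 genes were picked by the Akita contrast, so their larger Akita values are a description, and the differences did not pass correction (unadjusted p = 0.00313 to 0.0112, adjusted p = 1 each). For Abhd1 the difference was 0.01 with an interval from −0.56 to 0.59, for Slc5a1 −0.33 with an interval from −0.91 to 0.26 and for Gm43694 −0.10 with an interval from −0.69 to 0.50. The genes with the smallest p of the interaction were Depdc7, Ctps2, a CTP synthase gene, Spcs2, a signal peptidase subunit gene, Nkap and Ncoa4, the ferritin autophagy receptor gene. Their log2 changes were −0.63 to −0.23 without diabetes and 0.70 to 1.19 in Akita. The median log2 change of all genes was 0.04 without diabetes and 0.16 in Akita.

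**Figure D5:**
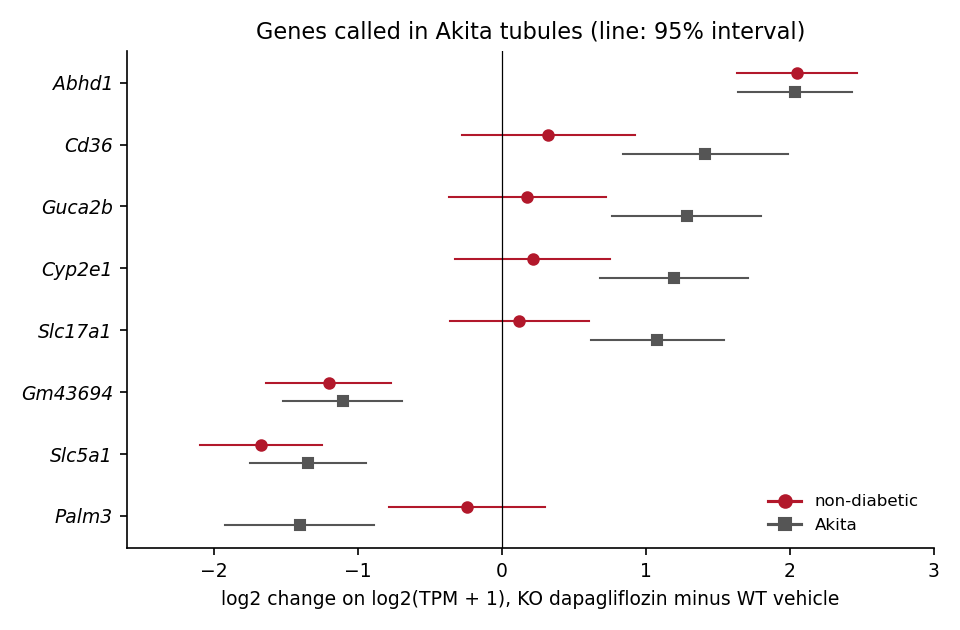
Log2 change (KO dapagliflozin minus WT vehicle) with its 95% interval for the 8 genes called in Akita tubules, in non-diabetic (red) and Akita (grey) samples. Abhd1 (2.05 and 2.04), Gm43694 (−1.20 and −1.11) and Slc5a1 (−1.67 and −1.35) lie close together without diabetes and in Akita, while the non-diabetic values of Cd36, Guca2b, Cyp2e1, Slc17a1 and Palm3 lie between −0.24 and 0.32.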

How the data were processed

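RNA of SGLT2-positive tubules was sequenced after stranded total RNA library preparation from 0.5 ng RNA with a DV200 above 30%, per the labels' protocols. The deposited table holds TPM, made by the authors with Salmon (version not given in the sources used here) and build GRCm38, with MultiQC 1.8, per the submitters' processing notes. The table's name says that outliers were taken out, without a criterion in the sources used here, and 6 of 54 labelled samples were not analysed here. Such removal can make p-values too small. Columns were matched to samples by title.

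Genes with TPM of at least 1 in at least 5 of 48 columns (12742 of 55487 rows) were analysed as log2(TPM + 1). A model with 9 groups was fitted with limma 3.58.1 (trend, robust, statmod 1.5.0, R 4.3.3), with 39 residual degrees of freedom. Two-sided p-values were Benjamini-Hochberg adjusted within each contrast, and genes were called under 0.05. The fit was tested on simulated data. The nuclear protein-coding share leaves out Lars2. Library measures were compared by exact permutation (SciPy 1.17.1, Python 3.11.15). Positions are from GENCODE annotation of GRCm38, which matched 51893 rows, and 13032 of 13307 Ensembl-named rows were given a symbol. Lists described here were compared by counts and medians, without a set test.

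Named genes were the targets, called genes, the 10 largest rises and falls (filled up by unadjusted p among genes averaging 2 TPM or more, predicted genes left out), 2 per list and 5 per interaction, plus genes called in other contrasts and overlapping partners. Further list members are named as examples, and some genes are not reported here. The members, lists and tests were chosen with earlier results of these data known. The combined block was recomputed with another pseudocount, other filters, scalings and covariates, fewer groups and each replicate left out.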

Additional observations from a re-analysis of the deposited data

Results flagged for a closer look

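Among 64 group values of the main named genes, 6 had a highest or lowest sample set apart from the others of its group by Dixon's criterion, which chance alone gives about 1 time in 20. Slc5a1 was at 0.123 TPM in KO dapagliflozin sample 3, with the other 5 libraries listed at 0, and that value was still far below wild type. Smek2 was at 9.94 TPM in WT vehicle sample 3, within the range of the KO dapagliflozin samples, and the other 4 WT vehicle samples lay at 4.43 TPM or lower. Cnih1 was at 5.09 TPM in WT vehicle sample 4, with the other 4 at 1.61 TPM or lower. Tesk1 was at 2.60 TPM in KO dapagliflozin sample 2, with the other 5 at 4.99 TPM or higher. Vsig10 was at 2.30 TPM in KO dapagliflozin sample 3, above the other 5, and Mbip was at 1.48 TPM in WT vehicle sample 6, below the other 4. Apart from Slc5a1, none of these genes was called with all samples.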

How the results depend on the processing

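The combined block called 3 genes with a pseudocount of 0.1, the 3 other scalings, both covariates and without trend and robust moderation. The covariates were the number of genes detected and the number in the sample title. The title number ran from 9 to 98 in KO dapagliflozin and from 54 to 84 in WT vehicle. Titles do not state whether it follows the order of processing. It called 4 without a filter (adding Gm17149), 2 with only the groups compared, and 1, Abhd1, with a mean of at least 2 TPM or the filter applied to the 11 columns compared, which was chosen after the data were seen. Slc5a1 and Gm43694 were not tested under these last filters, which also gave 1 called neighbour of Slc5a1 and 0 called list genes. Leaving out 1 sample gave 2 to 5 called genes. There were 2 without WT vehicle sample 3, 4 without WT vehicle sample 4 (adding Stx1a) and 5 without WT vehicle sample 6 (adding Adam19 and Hist1h2ag, adjusted p = 0.0442). Of the called genes, 2 to 3 lay within 5 Mb of Slc5a1, itself included, and 1 was in the lists. Abhd1 was called in every setting run.

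For the other contrasts, KO dapagliflozin against KO vehicle called 0 genes instead of 1 in all but 3 of the other settings, and 0 to 1 with 1 sample left out. KO dapagliflozin against WT dapagliflozin called 1 with the stricter mean filter and 2 with any sample left out, and KO vehicle against WT vehicle 1 and 2 to 4. Dapagliflozin alone called 1, Hist1h2bk, with only the groups compared. The interaction called 3 genes with each other scaling and with genes detected as a covariate, and 0 to 2 with 1 sample left out. The Akita contrast called 20 with a pseudocount of 0.1, 4 without a filter, 44 with median-of-ratios or protein-coding scaling, 53 with quantile normalization and 31 with genes detected as a covariate. Its calls split into 5 higher and 3 lower, and into 23 higher and 21 lower with protein-coding scaling. With only the groups compared it called 6, and Cd36, Guca2b, Cyp2e1, Slc17a1 and Gm43694 were not among them. It called 3 without Akita WT vehicle sample 6 and 26 without sample 3. The interaction with diabetes and dapagliflozin alone called 0 with any sample left out.

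Among named genes 2748 of 2769 values kept direction and side of the threshold. With 1 sample left out, 3 log2 changes turned. Slc2a2 ran from −0.236 to 0.0662, above 0 without KO dapagliflozin sample 1 or WT vehicle sample 3 (0.0019). Slc12a1 ran from −0.364 to 0.0048, above 0 without WT vehicle sample 1, and Yes1 from −0.0256 to 0.241, below 0 without WT vehicle sample 6. Of 901 list medians 8 moved by more than their spread. Differences of library measures ran, with 1 sample left out, from −150 to 247 genes detected, −0.0896 to 0.996 percentage points for nuclear protein-coding genes, −3.05 to 0.846 for mitochondrial transcripts and −0.738 to 3.83 for the largest transcript. The reversed ones were −150, −0.0896, −0.738 and, for mitochondrial transcripts, 0.217, 0.182 and 0.846. The causes were not tested. No paired analysis was possible because the labels give no replicate numbers and samples were numbered in record order. Depth is unknown, and changes of genes near 1 TPM are understated.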

Other observations

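Several further gene groups were measured in the combined block without diabetes. None held a called gene, where 0.0235% of all genes tested were called. Of 25 tested genes of drug and steroid metabolism 20 were above 0, with a median log2 change of 0.09, among them Sult1d1, a sulfotransferase gene (0.39), and Cyp2d9, a cytochrome P450 gene (0.42). Of 21 tested genes of the NRF2 response and glutathione 11 were above 0, with a median of 0.01. Nqo1, a target of NRF2, had 1.08 to 3.11 TPM in KO dapagliflozin and 0.926 to 2.08 TPM in WT vehicle. Of 17 clock genes 10 were above 0, and Clock had 4.45 to 9.29 TPM in KO dapagliflozin and 3.16 to 6.68 TPM in WT vehicle (log2 change 0.40, unadjusted p = 0.0947). Of 29 cytosolic ribosomal protein genes 20 were below 0, with a median of −0.07. The 4 tested red blood cell genes had the lowest median, −0.49, and summed to 0.401 to 3.60 TPM in KO dapagliflozin and 0.723 to 20.1 TPM in WT vehicle, where 2 libraries reached 6.12 and 10.8 TPM of Hba-a2.

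The fitted changes farthest from 0 belonged to transcripts whose levels differed widely between samples of the same group, singled out here after their values were seen. Gm47299 averaged 110 ± 269 TPM (SD, n = 6) in KO dapagliflozin and 259 ± 163 TPM (n = 5) in WT vehicle, with a log2 change of −5.07 and an adjusted p of 1 by limma. Gm25890 averaged 23.8 ± 12.4 TPM in KO dapagliflozin and 13.8 ± 30.9 TPM in WT vehicle, with a log2 change of 3.13 and an adjusted p of 1.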
